A study of Mus musculus with 4 samples.

Results

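Freshly sorted regulatory T cells (Treg) were compared with freshly sorted naive T cells, on the arrays titled Treg and naïve. These were 2 of the 4 samples of the series, chosen by their titles, with 1 array for each cell type. A gene was taken as measured if the scanner software called its probe well above background in both samples, which held for 17593 of the 27597 genes named on the array. Per its title, the series dealt with Eos in the silencing of genes by Foxp3, and the remaining samples were Treg transduced with a hairpin RNA. Both fresh samples came from Spleen and Lymph nodes of Balb/C mice and were labelled untransfected. Per the labels, CD4 T cells were first enriched by bead for presence or absence of CD25 and then sorted. The naive cells were CD4+CD25- with a further surface gate, and the Treg were CD4+CD25+ with no further gate named, on Foxp3 protein or otherwise. The labels do not say how many mice gave each sample.

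Treg are CD4 T cells that restrain immune responses, and they depend on the transcription factor Foxp3 and on IL-2 made by other cells. They act through surface inhibitors, secreted cytokines, adenosine made from extracellular ATP, and uptake of IL-2 through the receptor chain CD25. Naive T cells have not met antigen and recirculate through lymphoid organs at rest. The 2 populations can thus differ in lineage and in past activation, and with these gates the sources of a difference cannot be told apart.

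Levels are log2 of the background-corrected signal minus the 75th percentile of the same array, and a difference is Treg minus naive T on that scale. The percentile stood at a signal of 303 in naive T cells and 392 in Treg, so the quotient of raw signals, Treg over naive T, is larger than the scaled one. The ± beside a difference is the scanner software's error of both spots combined, a technical error with a median of 0.20. With no replicates, there is no test and no p-value, and a gene is counted where the 2 arrays are at least 2-fold apart. In bulk RNA, fewer cells that express a gene and less of its RNA per cell cannot be told apart.

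The labels were checked against marker genes. Foxp3 had a signal of 64.4 in naive T cells and 1778 in Treg. Of 12 measured Treg markers, 11 exceeded naive T cells by 2-fold or more, and of 12 naive T cell markers, 9 were lower by 2-fold or more. Il2ra, which encodes CD25, read 23.6 against 1228, but the cells were selected on this protein, so its difference of 5.33 ± 0.23 is no result. The summed level of 12 T cell markers was 401 in naive T cells and 348 in Treg, relative to each array's 75th percentile.

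Markers of other cell types were summed in the same way. The 16 B cell markers summed to a level of 6.04 in naive T cells and 11.6 in Treg. Blk, Pax5, Ebf1 and Fcer2a, which belong to B cells, were not well above background on either array, and 11 markers were above it in naive T cells and 12 in Treg. Cd79b, a signalling chain of the B cell receptor, read 137 in naive T cells and 654 in Treg, a difference of 1.88 ± 0.20. Cd22, a B cell lectin, had signals of 6.22 and 22.96 and was above background in Treg alone. The class II histocompatibility genes of that list differed too: H2-Aa had a signal of 21.1 in naive T cells and 178 in Treg, and H2-Ab1 had 109 and 750.1. Their counterpart Cd74, the invariant chain, read 786 and 1657, a difference of 0.70 ± 0.20. The 20 myeloid and dendritic cell markers summed to 4.50 and 4.66, and 13 were above background on each array. Xcr1, at 559 and 694, was the brightest of them, and Lyz1, S100a8 and S100a9 were not well above background on either array. Single members differed: Tyrobp, a signalling adaptor of myeloid and NK cells, read 18.3 and 67.3 (1.51 ± 0.27), and Fcer1g, another such adaptor, read 109 and 266 (0.92 ± 0.21, under 2-fold). The macrophage marker Adgre1 was above background in Treg alone, with signals of 1.92 and 14.2, and the integrin gene Itgam in naive T cells alone, with 24.6 and 8.64. The 12 NK and CD8 T cell markers summed to 9.82 and 12.1, but members went both ways. Of 10 measured, 3 were at least 2-fold higher and 2 lower, a balance that turned with array medians and quantile normalization. Nkg7 read 233 and 2075 (2.78), whereas Klrd1 (-2.86) and Prf1 (-2.33) were lower. Ncr1 was above background in Treg alone, with signals of 4.21 and 26.1. Jchain, the immunoglobulin joining chain of plasma cells, was bright on both arrays, at 7008 and 8827. The part of these cells in the results below was not tested.

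At the 2-fold limit, 970 of the measured genes (5.51%) were higher in Treg and 359 (2.04%) lower, and the median difference of all measured genes was -0.02. The larger the difference, the more one-sided were the counts: at 4-fold they were 343 higher and 60 lower, and at 16-fold 36 and 2. The share of higher genes among those apart was 73.0%, and it depended on the scaling. It was 55.2% with array medians in place of the 75th percentile, 87.2% with spike-in scaling and 83.5% with normexp background correction, which moved the median of all genes by -0.21, 0.26 and 0.23. A further 1172 genes were well above background in Treg alone and 432 in naive T cells alone. For 320 and 105 of these, the difference was at least 2-fold even against the limit of detection.

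**Figure D1:**
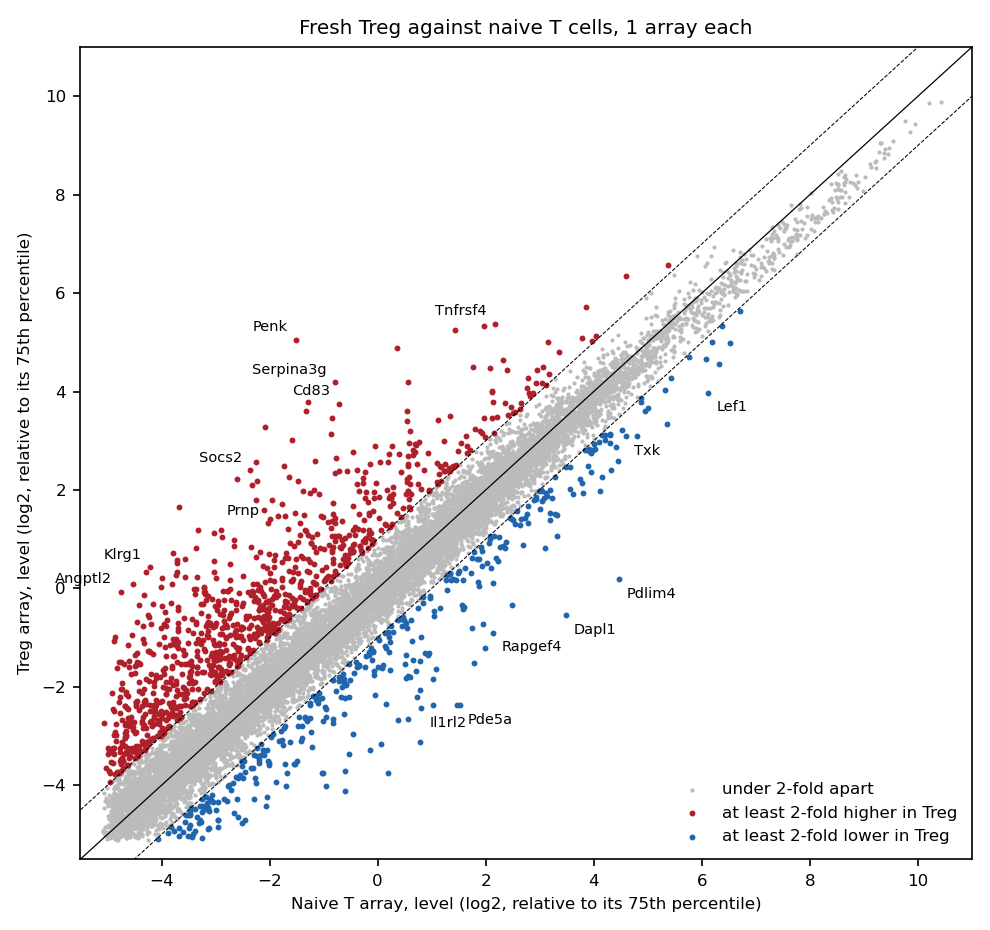
Level of every measured gene in naive T cells (horizontal) and Treg (vertical), as log2 signal relative to each array's 75th percentile; 1 point is 1 gene, the solid line marks equal levels and dashed lines a 2-fold difference. The 970 genes higher in Treg lie mostly at low to middle levels in naive T cells, and the brightest genes lie slightly below the line of equal levels.

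To describe functions, 53 gene lists were used. Read against the shares over all genes, 5.51% higher and 2.04% lower, lists of mitosis, chemokine receptors, DNA replication and effector transcription factors had the largest shares of higher members once the cell type marker lists were left aside. Oxidative phosphorylation, ribosome and protein folding lists had none or few members apart in either direction.

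**Figure D2:**
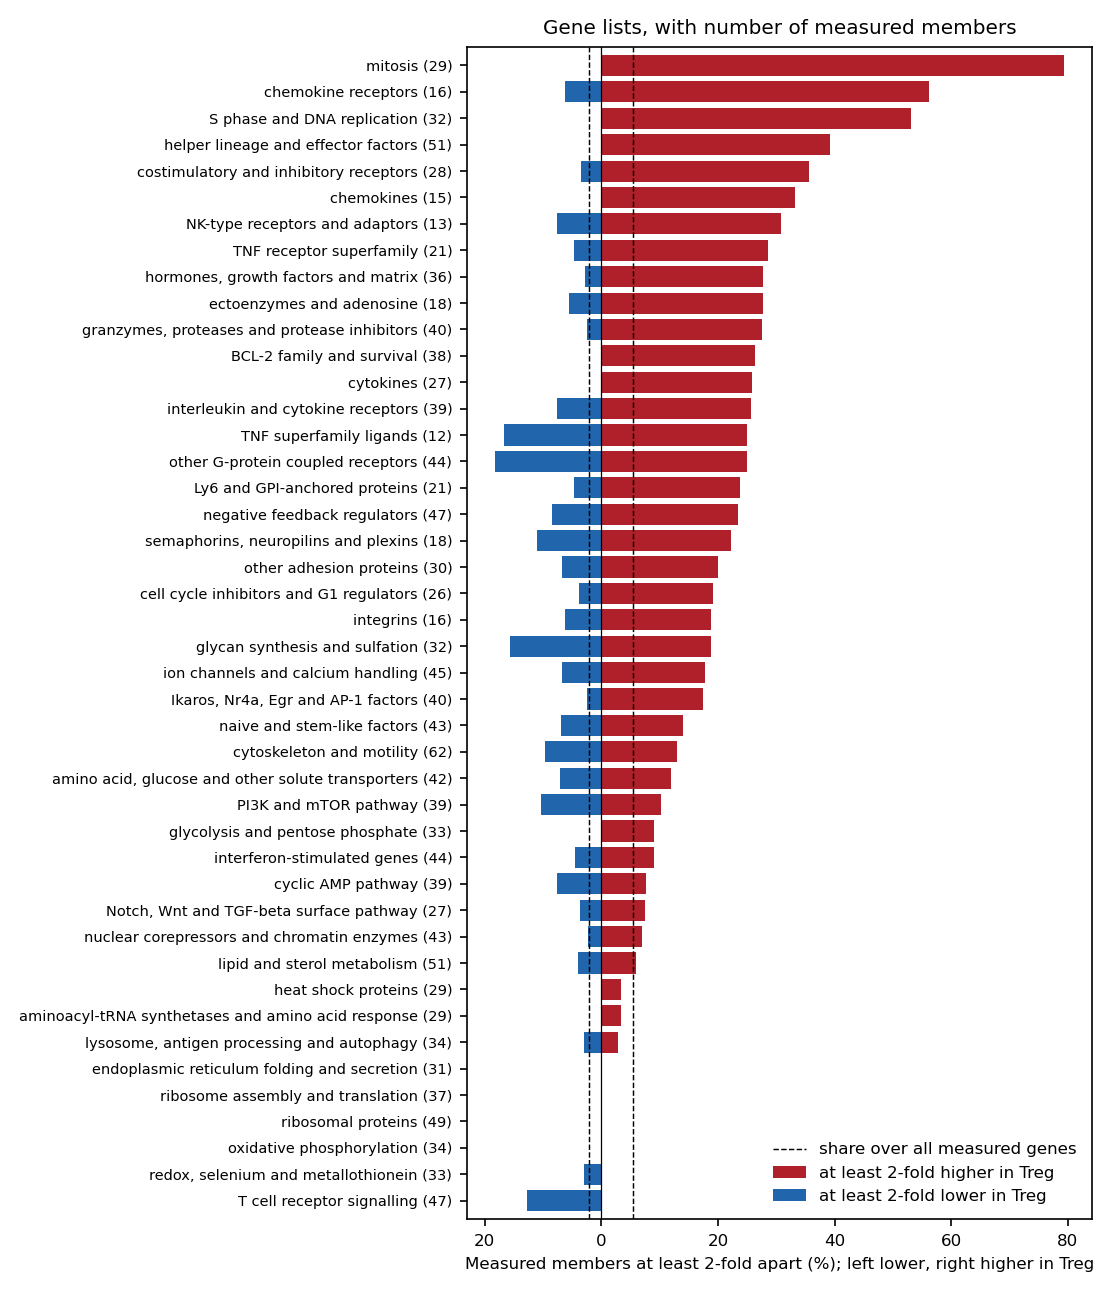
Share of measured members of each functional gene list that were at least 2-fold higher (red, to the right) or lower (blue, to the left) in Treg than in naive T cells, in percent; dashed lines mark the shares over all 17593 measured genes, 5.51% and 2.04%. The mitosis list stands out at 79.3% higher, while T cell receptor signalling has 12.8% lower and none higher.

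Chemokine receptors, which steer cells to tissues and to zones within lymphoid organs, were the surface family with the largest share of higher genes. Of 16 measured, 9 were higher by 2-fold or more and 1 was lower, with a median of 1.12, above that of all genes under all 5 scalings tried. Cxcr5, the receptor that draws lymphocytes into B cell follicles, had a signal of 84.2 in naive T cells and 1081 in Treg, a difference of 3.31 ± 0.21. Ccr4, a receptor of skin-homing and memory T cells, read 233 and 1714, a difference of 2.51 ± 0.20. Ccr2, a receptor of inflamed tissue, read 60.9 and 370.1. Ccr8, known from tissue Treg and named here after its value was seen, was above background in Treg alone and at least 10.6-fold higher. Ccr7, which guides naive cells to lymph nodes, was the member that was lower (-1.29 ± 0.20).

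Other G-protein coupled receptors went both ways, 11 of 44 higher and 8 lower; with scaling to array medians the balance of this list turned, to 10 and 11. Several lipid and gut-homing receptors were among the higher ones. Ptger2, a prostaglandin E2 receptor that raises cyclic AMP, read 22.99 in naive T cells and 490.5 in Treg (4.04 ± 0.24). Gpr15, a homing receptor for the large intestine, read 12.8 and 118 (2.83 ± 0.31). The leukotriene receptors Cysltr2 and Ltb4r1 were dim in naive T cells, at 14.2 and 11.8, and read 104 and 74.9 in Treg. Gpr83, a receptor known from Treg, was bright on both arrays, with 1179 and 15723 (3.37 ± 0.20). Adora2a, the adenosine receptor through which extracellular adenosine acts on T cells, read 2182 and 3087, a difference of 0.13 ± 0.20 on its brightest probe and 1.30 on its other. S1pr1, the receptor for exit from lymphoid organs, was lower (-1.39 ± 0.20).

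Cytokine receptors included opposite members of a single family. Of 39 measured, 10 were at least 2-fold higher and 3 lower. The IL-1 family receptors parted as follows. Il1rl1 (ST2), the receptor of the alarmin IL-33, read 54.1 in naive T cells and 466 in Treg (2.73 ± 0.21). Il1r2, a decoy that binds IL-1 without signalling, was above background in Treg alone, at a signal of 505 against 3.71, and was at least 43.8-fold higher. Il1rl2, the receptor of IL-36, went the other way, with 529 in naive T cells and 72.6 in Treg (-3.24 ± 0.21).

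The receptor chains of IL-2 and of related cytokines differed as well. Il2rb, the chain that carries IL-2 and IL-15 signals, read 816 and 14931, a difference of 3.82 ± 0.20. Il12rb1, a chain shared by the receptors of IL-12 and IL-23, read 127 and 1497 (3.19 ± 0.21). Il17rb, which binds IL-25, differed by 2.28 ± 0.22. Il7r, the receptor of the survival cytokine IL-7, was lower, with 6647 in naive T cells and 2348 in Treg (-1.87 ± 0.20). The interferon-γ receptor chain Ifngr1 differed by 0.19 ± 0.20, less than the scanner error, and Il4ra read 5985 and 4661.

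**Figure D3:**
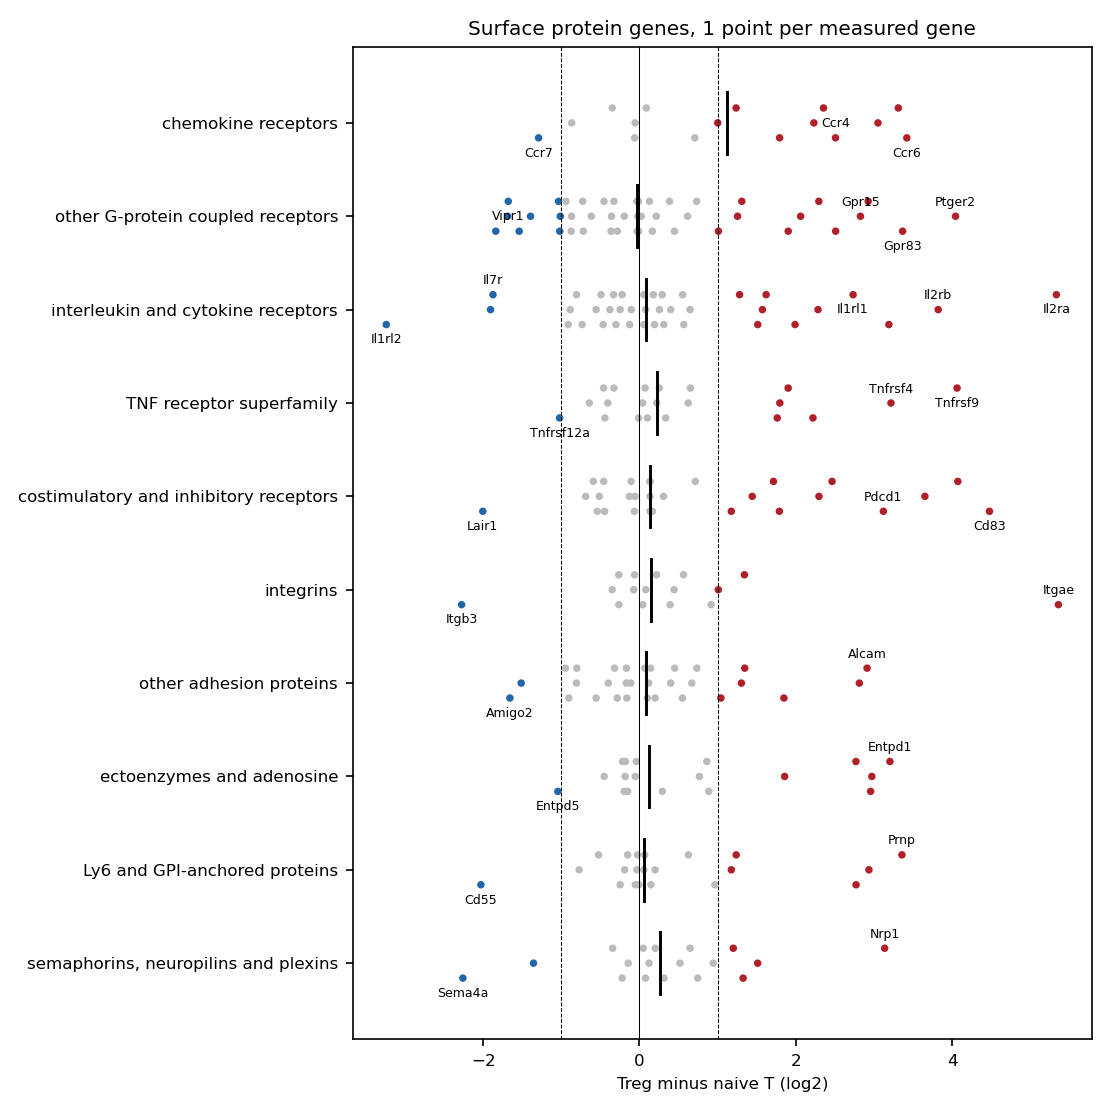
Treg minus naive T difference (log2) of every measured gene in 10 lists of surface proteins; 1 point is 1 gene, red at least 2-fold higher and blue at least 2-fold lower in Treg, black bars are list medians and dashed lines mark 2-fold. Chemokine receptors have the highest median, at 1.12, and single members such as Il1rl2 at -3.24 and Ptger2 at 4.04 lie far from their families.

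Of 21 measured TNF receptors, which relay costimulation, survival or death signals, 6 were at least 2-fold higher and 1 lower. Tnfrsf4 (OX40) rests on a high base: its signal was 1356 in naive T cells and 16312 in Treg, a difference of 3.22 ± 0.20. Tnfrsf18 (GITR) was bright in both, at 7294 and 32027, and differed by 1.76 ± 0.20. Tnfrsf8 (CD30), typical of activated lymphocytes, read 23.1 and 139 (2.22 ± 0.24). Tnfrsf1b, the TNF receptor that favours survival, differed by 1.79 ± 0.20 on its brightest probe and by 0.62 on another. By contrast, Cd27 (0.10 ± 0.20) and Tnfrsf25 (DR3, 0.22 ± 0.20) differed by little more than the scanner error at most. Of 12 measured ligands, 3 were at least 2-fold higher (25%) and 2 lower (16.7%), against 5.51% and 2.04% over all measured genes. Over the 5 scalings, 3 to 6 were higher and 0 to 2 lower. The lower ones were Cd40lg (-1.59, but 0.52 with normexp correction) and Fasl (-1.02). Among the higher ones, Tnfsf11 (RANKL), which drives osteoclast and thymic epithelial maturation, read 23.03 and 587 (4.30 ± 0.23). Lta (lymphotoxin α) differed by 2.07 ± 0.20 and Tnfsf14 (LIGHT) by 1.89 ± 0.21, whereas Ltb, the partner of Lta in lymphotoxin, was nearly equal at 0.02 ± 0.20.

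Costimulatory and inhibitory receptors had 10 of 28 measured members at least 2-fold higher and 1 lower. Cd83, better known from mature dendritic cells, was the most different of them, with a signal of 184 in naive T cells and 5292 in Treg (4.48 ± 0.20). Pdcd1 (PD-1) read 176 and 1981 (3.12 ± 0.20), and Icos, a costimulator of the CD28 family, read 659.8 and 4193 (2.30 ± 0.20). Cd200, an inhibitory ligand for myeloid cells, differed by 2.46 ± 0.20. Cd5, a brake on T cell receptor signals, was very bright in both and differed by 0.13 ± 0.20. NK-type receptors included Klrg1, an inhibitory receptor of terminally differentiated cells, at 16.3 and 531 (4.66 ± 0.27). Klrd1 (CD94), part of an NK receptor pair, was lower instead, with 522 in naive T cells and 93.2 in Treg (-2.86 ± 0.21).

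Of 16 measured integrin genes, 3 were at least 2-fold higher (18.8%) and 1 was lower (6.25%). Of 30 other adhesion protein genes, 6 were higher and 2 lower, but with scaling to array medians 5 were higher and 6 lower. Itgae, the αE integrin that binds E-cadherin on epithelium, differed by 5.36 ± 0.21, and Itgb1, the β1 chain, read 271 in naive T cells and 891 in Treg (1.34 ± 0.20, under 2-fold with normexp correction). Itgb7, the partner of αE, was bright and differed by only -0.27 ± 0.20. Itgb3 had probes that did not match each other, with -2.27 ± 0.20 on the brightest and -0.04 on the other, and is given as uncertain. Alcam and Epcam, homotypic adhesion proteins, were dim in naive T cells at 13.7 and 11.4 and read 134 and 103 in Treg. Sdc4, a heparan sulfate proteoglycan, read 15.5 and 495, with 4.63 ± 0.28 on the brightest probe and 2.92 on the other. Emb (embigin), a partner of monocarboxylate transporters, was lower (-1.51 ± 0.20).

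Both surface enzymes that turn extracellular ATP into adenosine were higher in Treg. Entpd1 (CD39), which removes phosphates from ATP, read 38.2 in naive T cells and 456 in Treg (3.20 ± 0.22). Nt5e (CD73), which makes adenosine from AMP, read 204 and 2051 (2.96 ± 0.20). Alpl, an alkaline phosphatase that can also dephosphorylate AMP, read 31.4 and 277 (2.77 ± 0.22). Cd38, which consumes NAD, differed by 2.97 ± 0.30. P2rx7, the ATP-gated channel, read 724 and 1703, under 2-fold at 0.86 ± 0.20 but past 2-fold with spike-in scaling. The intracellular adenosine kinase Adk was nearly equal (-0.04 ± 0.20).

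Proteins held by a lipid anchor included Prnp, the prion protein, at 73.9 in naive T cells and 979.9 in Treg (3.36 ± 0.21). Izumo1r, also called folate receptor 4, read 293 and 2898 (2.93 ± 0.20). Cd55, which shields cells from complement, was lower, with 1335 in naive T cells and 424 in Treg (-2.03 ± 0.20). In the guidance family, Nrp1 (neuropilin 1), a semaphorin and VEGF coreceptor, read 32.7 and 372 (3.14 ± 0.22), while Sema4a read 3035 and 821 (-2.26 ± 0.20). The semaphorin Sema4d and the plexin Plxna1 differed by 0.31 ± 0.20 and 0.08 ± 0.20, and the other probe of Plxna1 by 1.19.

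Secreted proteins reached the largest difference of all measured genes. Penk, which encodes the precursor of enkephalin opioid peptides, read 106 in naive T cells and 13036 in Treg, a difference of 6.57 ± 0.21. Several growth factor genes were dim in naive T cells and far brighter in Treg. Bmp7, a bone morphogenetic protein, read 47.8 and 771 (3.64 ± 0.21), and Csf1, the growth factor of macrophages, read 40.7 and 888 (4.07 ± 0.22). Angptl2, an angiopoietin-like protein, read 11.2 and 375 (4.69 ± 0.33), and Igfbp7, an insulin-like growth factor binding protein, read 22.6 and 474 (4.01 ± 0.25). Areg (amphiregulin), an epidermal growth factor receptor ligand linked to tissue repair, was above background in Treg alone and at least 17.96-fold higher. Igfbp4 was lower, with 1039 and 137 (-3.30 ± 0.21), opposite in direction to Igfbp7. Of the other binding proteins of this family, Igfbp2 was nearly equal (0.07 ± 0.26), and Igfbp3 and Igfbp5 were above background in Treg alone.

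Among cytokines, 7 of 27 measured were at least 2-fold higher and none lower. Il10, an inhibitory cytokine, read 12.99 in naive T cells and 204 in Treg (3.60 ± 0.32), and Fgl2, a fibrinogen-like protein secreted by Treg, read 21.8 and 419 (3.89 ± 0.25). Il4 was dim, with 25.8 and 83.8 (1.33 ± 0.24). Cxcl10, a ligand of Cxcr3, read 29.03 and 364 (3.28 ± 0.24), and Cxcr3 itself 442 and 4740. Ccl5 was brighter but under 2-fold apart (0.73 ± 0.20).

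Protease inhibitors and proteases, 11 of 40 higher and 1 lower, held some of the largest differences. Serpina3g, an intracellular cathepsin inhibitor, read 176 in naive T cells and 7126 in Treg (4.97 ± 0.20), and its relative Serpina3f read 13.1 and 415 (4.62 ± 0.33). The Serpina3 genes are close copies of each other, so a probe may read more than 1 of them. The sheddases Adam8 and Adam19 differed by 3.01 ± 0.20 and 3.25 ± 0.22, the latter by 1.37 to 1.97 on other probes. Mmp14, a membrane-bound matrix metalloprotease, read 22.2 and 151 (2.40 ± 0.24). Prf1 (perforin), the pore protein of killer cells, was lower, with 445 and 115 (-2.33 ± 0.21), and was under 2-fold apart after normexp correction.

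Transcription factors of helper and effector lineages were higher in 20 of 51 measured members and lower in none. Tbx21 (T-bet), the factor of type 1 helper cells, read 80.4 in naive T cells and 583 in Treg (2.49 ± 0.21). Ahr, a receptor for dietary and microbial ligands, read 15.03 and 182 (3.22 ± 0.29). Irf4, a factor for effector differentiation, read 74.6 and 325 (1.75 ± 0.21), and Prdm1 (Blimp-1) read 53.8 and 189 (1.44 ± 0.21, under 2-fold with normexp correction). Runx2, better known from bone, differed by 3.65 ± 0.27 on its brightest probe and from 0.44 to 3.67 on others. Hopx, a homeodomain-only protein, read 35.9 and 233 (2.33 ± 0.22). Not all such factors differed: Irf1 (-0.36 ± 0.20) and Ets1 (-0.03 ± 0.20) were bright and close to equal, and Id2 read 8484 and 5784 (-0.93 ± 0.20).

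Within the Ikaros family, Ikzf2 (Helios) and Ikzf4 (Eos) were unlike each other. Ikzf2 read 387 and 11525 (4.53 ± 0.20), with 4.25 to 4.55 on other probes. Ikzf4 read 192 and 363 on its brightest probe (0.54 ± 0.20), and other probes gave 0.61 and 2.67. The AP-1 gene Junb was among the brightest factors and differed by -0.17 ± 0.20. Nfkbia, an inhibitor of NF-κB that NF-κB itself induces, read 22748 and 48051 (0.71 ± 0.20).

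Factors of naive and stem-like T cells were split. Of 43 measured, 6 were at least 2-fold higher, 3 lower and 34 under 2-fold apart, and the balance turned with normexp correction. Lef1 had a signal of 21074 in naive T cells and 6185 in Treg (-2.14 ± 0.20), and its relative Tcf7 (TCF-1) read 4897 and 2800 (-1.18 ± 0.20, under 2-fold with spike-in scaling). Satb1, a chromatin organiser, read 6424 and 2862 (-1.54 ± 0.20). The quiescence factors Klf2 and Btg1 differed by -0.13 ± 0.20 and -0.23 ± 0.20. Myb, a progenitor factor on the same list, was higher, with 168 and 815 (1.90 ± 0.20), and so was Gfi1, a repressor (1.68 ± 0.20). Bach2, a repressor of effector genes, differed by -0.31 ± 0.20 on its brightest probe and -0.97 on the other. Of chromatin genes, Uhrf1, which guides maintenance methylation of DNA, read 147 and 1094 (2.52 ± 0.20), and Ezh2, the methyltransferase of the Polycomb complex, 225 and 928 (1.67 ± 0.20).

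T cell receptor signalling genes included none of 47 measured that was at least 2-fold higher and 6 that were lower, with a median of -0.20, below all genes under all 5 scalings. Themis, an adaptor needed for T cell development, read 3009 in naive T cells and 1099 in Treg (-1.83 ± 0.20). Of the Tec-family kinases, which activate phospholipase C, Txk differed by -1.50 ± 0.20 and Tec by -1.17 ± 0.21. Tec lost its 2-fold difference with spike-in scaling and normexp correction. Trat1, an adaptor that stabilises the receptor, differed by -1.10 ± 0.20, and Dgka, which removes diacylglycerol, by -1.09 ± 0.20, both under 2-fold with spike-in scaling. The receptor chain genes Cd3d (-0.50 ± 0.20) and Cd3g (-0.10 ± 0.20) and the kinase gene Lck (-0.34 ± 0.20) were under 2-fold apart.

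Feedback inhibitors of signalling were at least 2-fold higher in 11 of 47 and lower in 4. The list's median was 0.23, and it was -0.036 with normexp correction. Socs2 and Cish, inhibitors of cytokine signalling that STAT5 induces, read 59.1 and 2080 (4.76 ± 0.21) and 1035 and 8885 (2.73 ± 0.20). Dusp4, a phosphatase of MAP kinases, read 166 and 3452 (4.01 ± 0.20), while its relatives Dusp1 (0.27 ± 0.20) and Dusp2 (0.04 ± 0.20) were bright and nearly equal. Dusp14 was above background in Treg alone and at least 27.2-fold higher. Spry1, an inhibitor of Ras signalling, read 118 and 1106 (2.85 ± 0.21), and Rgs16, which ends G-protein signals, 70.2 and 1177 (3.69 ± 0.21). Pdlim4, a PDZ and LIM domain protein, was the most reduced measured gene with a plain symbol, with 6675 in naive T cells and 447 in Treg (-4.27 ± 0.20, and -2.26 on its other probe).

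Cyclic nucleotide genes included several large differences among few genes apart. Of 39 measured in the cyclic AMP list, 3 were higher and 3 lower (7.69% each), against 5.51% and 2.04% over all measured genes. Over the 5 scalings, 2 to 4 were higher and 3 to 5 lower, so the values below describe single genes. Pde3b, a phosphodiesterase that Foxp3 is known to repress, read 503 in naive T cells and 84.9 in Treg (-2.94 ± 0.21). Pde5a, which degrades cyclic GMP, read 868 and 75.4 (-3.90 ± 0.21). Rapgef4 (EPAC2), a cyclic AMP sensor that activates Rap1, read 1337 and 210.0 (-3.04 ± 0.20), and Rapgef3 (EPAC1), of the same function, went the other way at 40.4 and 126 (1.27 ± 0.22, under 2-fold with normexp correction). Gnaq, a G-protein α subunit, read 63.5 and 609.5 (2.89 ± 0.21). Pde4b and Adcy7, the brightest phosphodiesterase and cyclase genes taken, differed by -0.68 ± 0.20 and -0.45 ± 0.20.

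The PI3K list had 4 of 39 members higher and 4 lower (10.3% each), against 5.51% and 2.04% over all measured genes. Sgk1, a kinase downstream of PI3K that regulates sodium channels, read 2762 in naive T cells and 1134 in Treg (-1.66 ± 0.20), and Pik3ip1, an inhibitor of PI3K, read 2844 and 1393 (-1.40 ± 0.20). Igf1r, the insulin-like growth factor receptor, differed by 2.07 ± 0.20 and Trib1, a pseudokinase, by 2.59 ± 0.20. Of 38 survival genes, 10 were higher by 2-fold or more and none lower, and they stood on both sides of apoptosis. Bcl2a1b, which protects cells, read 1308 and 6310 (1.90 ± 0.20), and Pmaip1 (NOXA), which promotes death, read 252 and 1852 (2.50 ± 0.20). The Bcl2a1 genes are near-identical copies, and their probes may not separate them. Casp4, the inflammatory caspase that senses lipopolysaccharide in the cell, read 453 and 3032 (2.37 ± 0.20).

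Cell division genes formed the list with the largest share apart, leaving aside the lists of cell type markers. Of 29 measured mitosis genes, 23 passed 2-fold upwards in Treg and none downwards, with a median of 2.04, and Cdc25c, Kif2c, Ttk and Hmmr were above background in Treg alone. Mki67, the proliferation marker Ki-67, read 352 in naive T cells and 2616 in Treg (2.52 ± 0.20). Bub1, a kinase of the spindle checkpoint, read 22.7 and 191 (2.70 ± 0.25), and Cdk1, the kinase that starts mitosis, 38.8 and 291 (2.54 ± 0.22). Kif23, a motor of cell separation, did not share this, with 326 and 286 (-0.56 ± 0.20). Of 32 S phase genes, 17 were higher and none lower, with a median of 1.07. With normexp correction, the median above that of all genes fell from 2.06 to 1.01 for mitosis and from 1.09 to 0.49 for S phase, and 22 and 12 genes were at least 2-fold higher. Cdc6, which loads the replicative helicase, read 22.04 and 192 (2.75 ± 0.24), but Pcna, the sliding clamp, was bright on both arrays and nearly equal (0.08 ± 0.20). Of 26 measured cell cycle inhibitors and G1 regulators, 5 were at least 2-fold higher (19.2%) and 1 lower (3.85%), against 5.51% and 2.04% over all genes. Cdk6, the kinase of early G1, read 239 and 1540 (2.32 ± 0.20). Inhibitors of that kinase went both ways. Cdkn2d read 4663 and 2634 (-1.20 ± 0.20, under 2-fold with spike-in scaling), whereas Cdkn2c (1.27) and Cdkn2b (1.04) were higher.

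**Figure D4:**
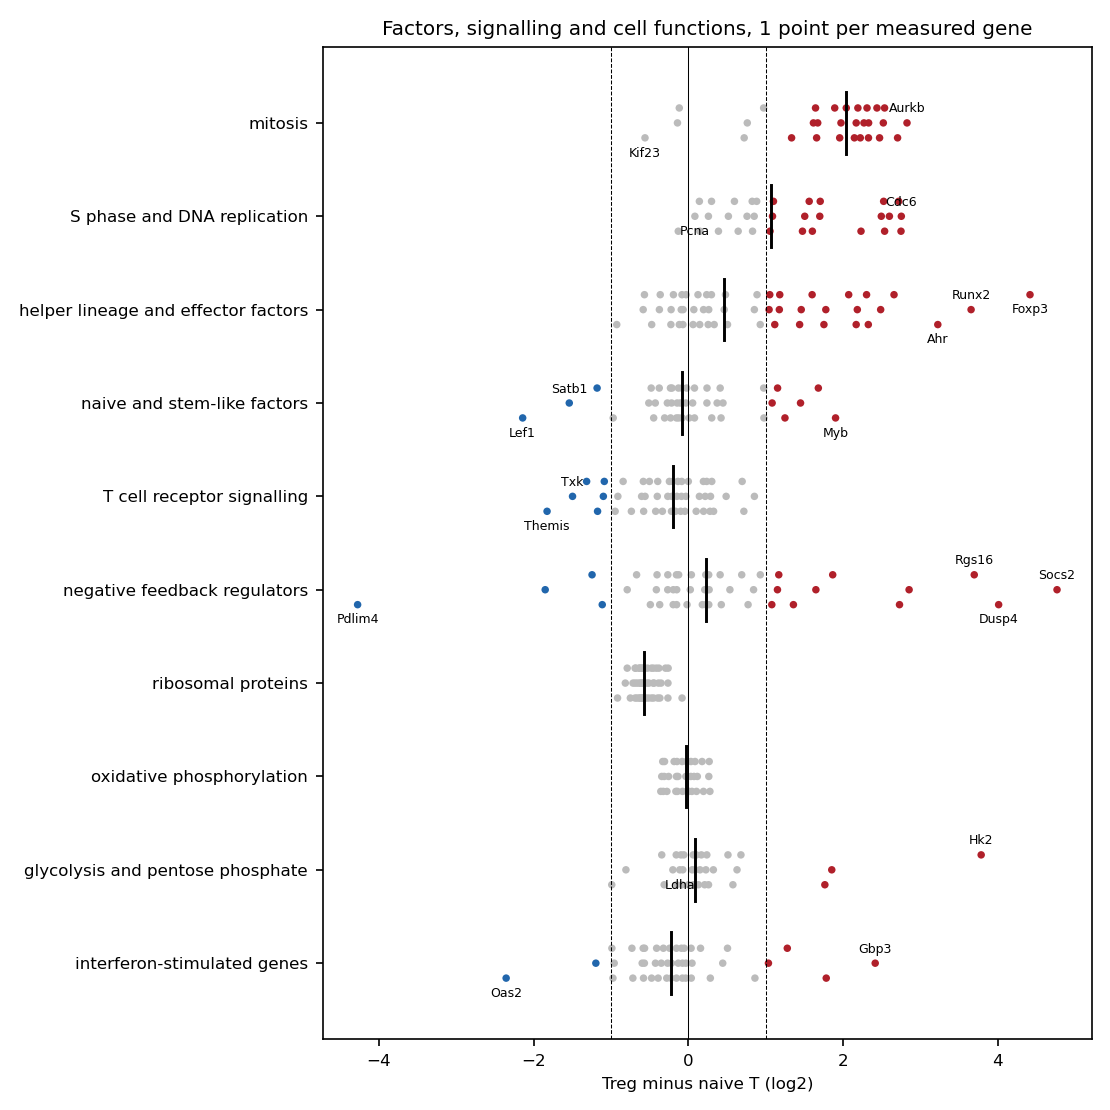
Treg minus naive T difference (log2) of every measured gene in 10 lists of factors, signalling and cell functions; 1 point is 1 gene, red at least 2-fold higher and blue at least 2-fold lower in Treg, black bars are list medians and dashed lines mark 2-fold. Mitosis genes centre on 2.04 and S phase genes on 1.07, while ribosomal protein genes form a tight group around -0.57.

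Promoters of mitosis genes are known to carry CCAAT boxes, bound by the factor NF-Y, and a cell cycle homology region, TTTGAA, bound by the repressive DREAM complex in resting cells. The 250 bases before each gene's start were searched on both strands in the RefSeq promoters of assembly GRCm38.p6. CCAAT was found in 18 of 24 mitosis genes with a promoter (75%), 16 of 27 S phase genes (59.3%) and 34.5% of all 27025 promoters. TTTGAA was found in 8 of 24 (33.3%), 3 of 27 (11.1%), 16.3% of all promoters and 11.4% of those of measured genes under 2-fold apart. Over all genes apart, the shares were close to each other, with CCAAT in 36.7% of higher genes, 37.2% of lower genes and 36.1% of genes in between. The promoters below are shown because they hold both motifs in genes whose values are given here. Each is the 250 bases before the start, 5′ to 3′ on the gene's strand, with CCAAT and TTTGAA of either strand in capitals (ATTGG and TTCAAA on the printed strand where the motif is on the other). Motifs do not overlap in them.
Mki67: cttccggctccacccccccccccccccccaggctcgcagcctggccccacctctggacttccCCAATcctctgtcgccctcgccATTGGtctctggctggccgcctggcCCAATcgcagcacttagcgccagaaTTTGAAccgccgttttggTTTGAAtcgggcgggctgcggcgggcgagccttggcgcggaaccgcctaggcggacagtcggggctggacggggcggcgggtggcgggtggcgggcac
Cdk1: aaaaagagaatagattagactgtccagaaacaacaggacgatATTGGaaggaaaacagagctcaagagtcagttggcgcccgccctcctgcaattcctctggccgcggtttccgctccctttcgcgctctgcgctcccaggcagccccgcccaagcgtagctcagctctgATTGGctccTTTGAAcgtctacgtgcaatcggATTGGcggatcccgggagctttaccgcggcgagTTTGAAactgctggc
Ccnb2: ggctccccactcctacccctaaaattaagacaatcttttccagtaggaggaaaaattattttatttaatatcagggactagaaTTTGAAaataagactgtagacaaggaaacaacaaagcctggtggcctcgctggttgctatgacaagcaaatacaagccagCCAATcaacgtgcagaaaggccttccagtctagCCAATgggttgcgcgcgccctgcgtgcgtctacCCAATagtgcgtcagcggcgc
Bub3: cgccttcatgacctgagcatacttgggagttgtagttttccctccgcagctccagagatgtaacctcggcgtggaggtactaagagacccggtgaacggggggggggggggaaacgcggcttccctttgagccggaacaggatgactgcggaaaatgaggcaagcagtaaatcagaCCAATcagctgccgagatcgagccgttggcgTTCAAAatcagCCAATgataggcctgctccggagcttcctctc
Mki67 lies at chr7:135716380-135716629 on the minus strand, Cdk1 at chr10:69352913-69353162 on the minus strand and Ccnb2, the cyclin of that kinase, at chr9:70421555-70421804 on the minus strand. Ccnb2 differed by 2.15 ± 0.20. Bub3, a checkpoint protein at chr7:131560120-131560369 on the plus strand, has both motifs as well, and its level differed by -0.14 ± 0.20 on its brightest probe and 0.20 on another. A match is a run of letters and not evidence that a factor binds there.

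Motifs of factors central to Treg were searched in the same way. The forkhead motif TGTTTAC was found in 2.72% of higher, 4.48% of lower and 2.29% of in-between promoters, and the STAT motif TTCNNNGAA in 6.95%, 4.04% and 6.25%.

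Ribosomal protein genes all read somewhat lower in Treg. The 49 measured genes lay between -0.92 and -0.08, none of them 2-fold apart, with a median of -0.57 against -0.02 for all genes. Rps23, of the small subunit, had a signal of 296861 in naive T cells and 269983 in Treg (-0.51 ± 0.20). With scaling to array medians, quantile normalization, spike-ins or normexp, between 0 and 28 of the 49 were at least 2-fold lower, and the median lay below that of all genes, with a difference from -0.07 with quantile normalization to -1.24 with normexp. Ribosome assembly genes, 37 measured, had none 2-fold apart, with 7 above 0, and the side of their median relative to all genes changed with the scaling. Aminoacyl-tRNA and amino acid response genes, with 9 of 29 above 0, had 1 at least 2-fold higher, Asns (asparagine synthetase), at 209 and 834 (1.62 ± 0.20).

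Energy genes differed little, with few exceptions. None of 34 oxidative phosphorylation genes was 2-fold apart under any of the 5 scalings. In glycolysis, 3 of 33 were higher (9.09%, against 5.51% over all measured genes) and none lower. Hk2, the inducible hexokinase, read 25.7 in naive T cells and 458 in Treg (3.78 ± 0.23). Eno3, the muscle enolase, read 712 and 3130 (1.76 ± 0.20), and Eno2, the neuronal enolase, 20.3 and 94.98 (1.85 ± 0.25). The abundant glycolytic genes Aldoa (-0.34 ± 0.20) and Ldha (-0.11 ± 0.20) were under 2-fold apart.

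Single metabolic genes stood apart in other pathways. Slc7a10, a transporter of small neutral amino acids, had a signal of 4.87 in naive T cells and 671 in Treg and was at least 58.2-fold higher, the largest bound of any gene. Bcat1, the cytosolic transaminase of branched-chain amino acids, read 23.2 and 559 (4.22 ± 0.25). Slc22a2, an organic cation transporter, read 29.7 and 459 (3.58 ± 0.22). Dhrs3, which turns retinal back to retinol, read 25.6 and 594, with 4.16 ± 0.24 on the brightest probe and 2.83 on the other. Adh1, an alcohol dehydrogenase that oxidises retinol, went the other way, with 619.9 in naive T cells and 76.4 in Treg (-3.39 ± 0.21). Ggt5, a γ-glutamyl transferase that acts on glutathione and leukotriene C4, read 841 and 75.99 (-3.84 ± 0.21), and its relative Ggt1 was above background in naive T cells alone and at least 6.49-fold lower in Treg. Acsbg1, a fatty acyl-CoA synthetase, differed by 2.02 ± 0.20, while Fasn and Elovl5 of lipid synthesis differed by 0.56 ± 0.20 and -0.10 ± 0.20.

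Enzymes that build surface glycans went both ways, 6 of 32 higher and 5 lower, and the balance turned with normexp correction. Fut7, which makes selectin ligands, read 67.01 in naive T cells and 399.8 in Treg (2.20 ± 0.21), and Chst2, a sulfotransferase of selectin ligands, 21.7 and 132 (2.23 ± 0.26). Gcnt1, which builds core 2 O-glycans for such ligands, was above background in Treg alone and at least 13.1-fold higher, and is named after its value was seen. St3gal6, a sialyltransferase, was lower (-2.51 ± 0.21, under 2-fold with normexp correction), and so was Hs3st3b1, which sulfates heparan chains (-2.19 ± 0.21). Of ion handling genes, Kcnk6, a potassium leak channel, differed by 3.52 ± 0.26, and the calcium-binding S100a4 and S100a6 by 2.33 ± 0.20 and 2.20 ± 0.20. Among cytoskeletal genes, Capg, which caps actin, read 1600 and 8453 (2.03 ± 0.20), and Myo1e, a membrane-linked myosin, differed by 4.19 ± 0.23 with 2.13 to 2.53 on other probes. Myo6, a myosin that moves cargo inward, was lower (-1.73 ± 0.20).

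Of 44 interferon-stimulated genes, 4 were higher (9.09%) and 2 lower (4.55%), against 5.51% and 2.04% over all measured genes. That balance turned with array medians and quantile normalization. The list's median was -0.22, with 32 members below 0. It turned to 0.040 with spike-in scaling, which moved the median of all genes to 0.24. Relative to all genes, the list's median lay from -0.50 to -0.10 over the 5 scalings. Gbp3, a guanylate-binding protein, read 1273 in naive T cells and 8784 in Treg (2.41 ± 0.20), and Oas2, an RNA sensor, read 437 and 111 (-2.35 ± 0.21, under 2-fold with normexp correction). Protein folding genes of the endoplasmic reticulum had none of 31 members 2-fold apart. Lysosome and autophagy genes had 1 of 34 each way: Gabarapl1, of the autophagosome, read 274 and 2248 (2.66 ± 0.20), and Npc2, a cholesterol carrier of the lysosome, 9402 and 4762 (-1.35 ± 0.20).

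Genes lower in Treg included several of little described function in T cells. Dapl1, a death-associated protein-like gene, read 3377 in naive T cells and 268 in Treg (-4.03 ± 0.20). Nacc2, a BTB-domain repressor, read 518 and 44.9 (-3.90 ± 0.22), and Lypd6b, a Ly6-family protein, 1197 and 169 (-3.19 ± 0.21). Enc1, an actin-binding protein known from neurons, read 1702 and 312 (-2.82 ± 0.20), and Nsg2, a neuronal vesicle protein, 1175 and 238 (-2.68 ± 0.20). Of genes above background in naive T cells alone, P4ha2, a subunit of collagen prolyl hydroxylase, was at least 13.8-fold lower in Treg.

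A region at the start of chromosome 14 held a block of large differences outside the lists, found after the values were seen. Per the file headers the array's coordinates are on mouse build mm8. Of 40 probes between positions 3000000 and 7000000, 34 were measured, and 20 of those exceeded 2-fold towards Treg and none towards naive T cells. Of these, 18 probes of 12 gene names were at least 8-fold higher, lay between 3436207 and 6240418, and had a median of 4.31 and a range of 3.11 to 5.39. Gm3696, 4930555G01Rik and Gm10413 are among them, with differences of 4.31 ± 0.20, 4.61 ± 0.21 and 4.51 ± 0.22. Other measured probes of Gm10413 gave 0.78, 3.40 and 4.29. The copies in this region are near-identical, so 1 transcript may light many probes, and the probes are not separate findings. The block was not bright in every Treg sample: before scaling, LOC675467 and Gm3696 read lower in the transduced Treg labelled si-RL than in naive T cells. Further along the chromosome, Pxk (-0.22 ± 0.20) and Pdhb (-0.41 ± 0.20) were under 2-fold apart.

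**Figure D5:**
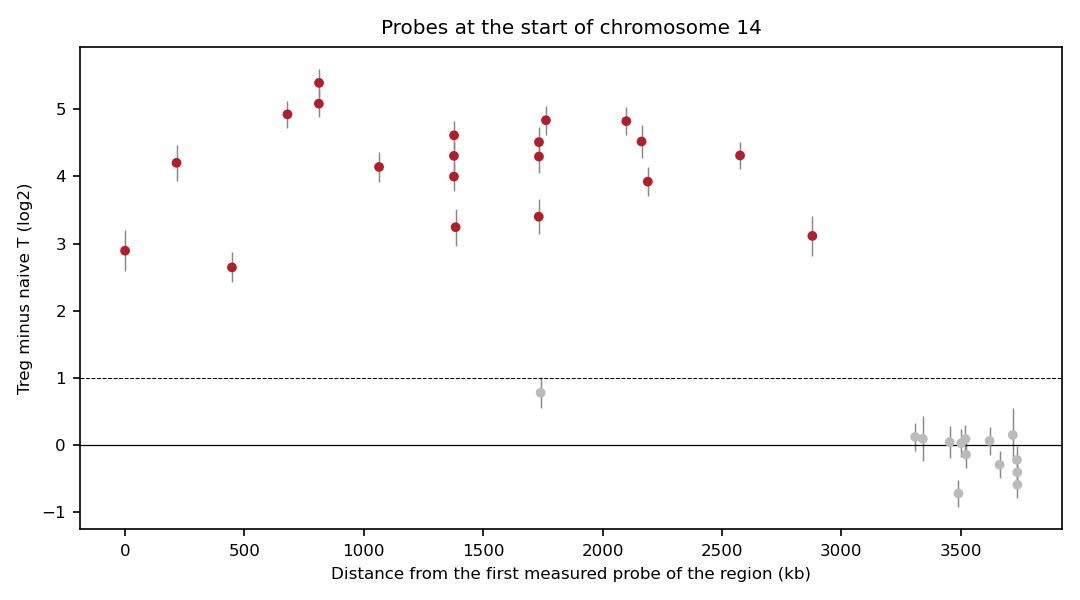
Treg minus naive T difference (log2) of the 34 measured probes in the first part of chromosome 14, by distance from the first of them in kb; bars are the scanner error of both spots, red points are at least 2-fold higher in Treg and the dashed line marks 2-fold. The 20 higher probes occupy the first part of the stretch, with values up to 5.39. Among them lies 1 probe under 2-fold, of Gm10413, and the probes after them lie near 0.

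Higher genes also followed each other elsewhere in the order of measured genes. In RefSeq gene order, 13887 measured genes could be placed. Genes not measured were skipped, so members of a run need not be adjacent in the genome. There were 12 runs of 3 or more successive genes that were all higher by 2-fold or more. Of these, 1 was in the chromosome 14 block, and there was no such run of lower genes. Over all measured genes, 5.51% were higher and 2.04% lower, so runs of lower genes were less likely to begin with. How many runs these shares alone would give was not computed, so no one-sidedness is read from the counts. Paralogs next to each other in this order were part of several runs, so shared hybridisation may enter. One run without close copies joined Kctd17 (2.21 ± 0.21), Il2rb (3.82 ± 0.20) and C1qtnf6 (2.98 ± 0.24). Another joined Dhrs3 (4.16 ± 0.24) with the TNF receptors Tnfrsf1b (1.79 ± 0.20) and Tnfrsf8 (2.22 ± 0.24). A further run joined Cpox (1.20 ± 0.20), Gpr15 (2.83 ± 0.31) and Cldnd1 (1.06 ± 0.21). The longest run, of 5 genes, held the stefin genes Csta2 (2.03 ± 0.24), Cstdc6 (3.13 ± 0.29) and Stfa3 (3.22 ± 0.23), the related Stfa2 at the 2-fold limit, and Cd86 (1.79 ± 0.21), a costimulatory ligand of antigen-presenting cells. Of 12 measured myeloid markers, 6 were above 0 and 6 below, with a median of -0.002, and Tyrobp alone was at least 2-fold higher. Of those above background on 1 array only, Adgre1 was brighter in Treg, at a signal of only 14.2, and Itgam was dimmer. The part of such cells in this run was not tested.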

How the data were processed

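RNA from 2 samples was read on 1-colour Agilent arrays. Per the file headers, the deposited intensity values were made with Agilent Feature Extraction 9.5.3.1 as processed signals, background-subtracted and linear, not normalized between arrays. The deposited value table held the same processed intensity. From these, levels were computed as log2 signal less the 75th percentile of the same array, taken over 41174 probes, with outlier spots (91 and 94) left out and spots of a probe averaged. Of the probes, 26719 (64.9%) passed the background call in naive T cells and 27898 (67.8%) in Treg, and none was saturated. The number of arrays limits the precision.

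A gene was represented by its brightest probe over the 4 arrays. Names came from a RefSeq table of assembly GRCm38.p6 by accession for 24367 probes, by symbol for 6307 and by synonym for 2425, and 8075 kept the file's name. Where a gene was above background on 1 array only, "at least N-fold" divides the bright level by a floor: the lowest detected level of the dim array, or the probe's own level there if that is higher.

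Genes were named by rule: the 25 largest differences each way, up to 6 members of each list at least 2-fold apart and 3 bright members under 2-fold, the 10 largest bounds each way, and the gate genes, Foxp3 and Ikzf4. Genes with probes going both ways needed both values. Names outside the rule were chosen after their values were seen. The samples, the 53 lists and the alternatives were chosen with earlier results of these data known. The counting was tested on simulated data. Alternatives used limma 3.58.1 (normexp with offset 50, quantile normalization), and tables were made with Python 3.11.15 and pandas 2.3.3. Values of some measured genes are not reported here.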

Additional observations from a re-analysis of the deposited data

How the results depend on the processing

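With the main settings, 970 genes were higher and 359 lower by 2-fold or more. The lower count was 627 with scaling to array medians and 209 with spike-in scaling, and the higher count was 1885 with normexp correction. With no filter on background the counts were 2140 and 982, and over the upper part of the levels alone 281 and 160. At 1.5-fold they were 1879 and 1255, and at 3-fold 544 and 112. Of genes detected on 1 array, those with a 2-fold bound numbered 320 for Treg and 105 for naive T cells, and 1171 and 0 with normexp. The 12673 probes detected on neither array had a median level of -7.09 in naive T cells and -7.24 in Treg, and of -1.94 and -0.78 with normexp, so that correction left dim probes brighter on the Treg array. The median of interferon-stimulated genes turned to 0.040 with spike-in scaling, which moved the median of all genes to 0.24. Relative to all genes, that list stayed lower under all 5 scalings. The median of feedback inhibitors turned to -0.036 with normexp. Over the upper levels alone, the medians of plasma cell and stromal markers turned to -0.040 and -0.25. With normexp, Cd200r3 turned to 0.021, Cd40lg to 0.52, Dll4 to 0.23, Fosl2 to 0.59 and Klrk1 to 1.06. The cause of the other shifts was not tested. Of 383 named genes, 329 kept their direction and side of 2-fold with normexp, 361 with array medians and 365 with spike-ins. No paired analysis was possible because each group is 1 array, and no array could be left out.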

Other observations

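Further large bounds among genes above background in Treg alone belonged to genes outside the usual description of T cells. Gjb2 (connexin 26), a gap junction channel, had a signal of 7.57 in naive T cells and 281 in Treg and was at least 24.4-fold higher. Dscam, a neuronal adhesion protein, read 5.29 and 272 (at least 23.6-fold). Axl, a receptor kinase for apoptotic cells, read 4.26 and 252 (at least 21.9-fold). Ptprj (CD148), a receptor phosphatase named after its value was seen, read 5.28 and 206 (at least 17.9-fold).

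The block on chromosome 14 was also read on the arrays of transduced Treg. LOC675467 in this block had a signal of 121 in naive T cells and 4763 in Treg. It read 1833 in the transduced library labelled si-Eos. The corresponding signal was 34.05 with the control label, si-RL. Gm3696 in the block read 169 in naive T cells, 4348 in Treg, 1959 in si-Eos and 61.7 in si-RL. These signals are not scaled between arrays, whose median signals were 33.2, 50.5, 38.5 and 31.5 in the same order. On the si-RL array these genes thus read below naive T cells, so the block was not bright in every Treg sample. No finer comparison is drawn from 1 array each, and the cause was not tested.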
